A study of Mus musculus with 14 samples.

Results

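Adult brain carrying deletions of the H19-DMR and the IG-DMR (KO2, n = 2 libraries) was set against adult wild-type brain (set 1, n = 2 libraries), 4 of the 14 libraries of the series. The comparison covers every gene with at least 1 FPKM in 2 or more of the 4 libraries, which were 13289 of the 23375 genes in the deposited table. FPKM are fragments scaled to transcript length and sequencing depth. A further 9355 genes did not reach that level, and 731 rows of microRNAs and small nucleolar or Cajal body RNAs were left out, 7 of which would have reached it. All 4 libraries were poly(A)-selected RNA of brain from mice labelled adult. The labels give no age, strain or sex, nor the clone of haploid embryonic stem cells behind the knockout animals. They do not say whether replicates came from separate animals, so the p-values describe variation among these samples and may reflect technical variation alone. The study is known, though its labels do not state it, to have used KO2 to join a pair of maternal genomes in one embryo. If so, effects of the deletions and of 2 maternal genomes cannot be told apart in this comparison. Earlier KO2 brain (E19.5, the same deletions) was set against its wild type to ask whether a difference was shared. Adult brain that also lacked the Rasgrf1-DMR (KO3) was set against wild-type set 2 for the same question. Each of these groups had 2 libraries. The E19.5 libraries also entered a fit of 10 libraries whose shared spread was used for the adult comparison. That fit further held 2 libraries of E19.5 KO7 brain (7 regions deleted). KO3 and wild-type set 2 also entered alternative settings.

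A differentially methylated region (DMR) is a stretch of DNA that carries methylation on the copy from 1 parent and controls imprinted genes nearby, which are then expressed from the maternal or the paternal copy. The H19-DMR controls the growth factor gene Igf2 and the non-coding RNA H19, and the IG-DMR controls Dlk1, Rtl1 and Dio3 on the paternal copy and Meg3, Rian and Mirg on the maternal copy. Both regions are normally methylated on the paternal copy, as is the control region of Rasgrf1. Most other imprinted clusters, among them the Snrpn cluster that holds Ipw, are methylated on the maternal copy.

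The 4 libraries were close to each other. Between 13129 and 13195 genes per library reached 1 FPKM, and Pearson's r across tested genes was 0.9855 within KO2, 0.9867 within wild type and 0.977 to 0.9872 between the groups, so the groups did not separate by overall likeness. Pan-neuronal markers, among them synaptic and neurofilament genes, summed to 2748.5 and 2687.5 FPKM in KO2 and 2868.0 and 2561.3 FPKM in wild type. Astrocyte markers summed to 1630.3 and 1748.2 against 1727.6 and 1652.0 FPKM. Xist, which silences 1 X chromosome in females, was at 41.3 and 34.1 FPKM in KO2 and 45.7 and 48.3 in wild type, and the Y-linked genes Ddx3y, Eif2s3y and Kdm5d were at 0 in all 4. Use of strand is not given in the sources used here, so reads of Xist and of its antisense partner Tsix cannot be told apart.

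In limma's test on log2(FPKM + 1), 9 of the 13289 genes passed an adjusted p of 0.05, 0.0677% of those tested, with 5 higher (0.0376%) and 4 lower (0.0301%) in KO2. At an unadjusted p under 0.05 there were 1661 genes (12.5%), 1135 higher (8.54%) and 526 lower (3.96%), and 60.2% of tested genes had a log2 change above 0. Both KO2 libraries lay above both wild-type libraries for 31.0% of tested genes and below them for 15.9%, and these shares are the background for each gene group described here. The labels do not state how the 6 E19.5 libraries were handled. These libraries listed 4587 to 5463 genes at 0, and the 4 adult libraries 4770 to 5114. Fitted with the 6 E19.5 libraries, so that 10 libraries shared 1 estimate of the spread, 70 genes passed (0.527%), 53 higher (0.399%) and 17 lower (0.128%), among them 8 of the 9. With only 2 libraries a group the count was not stable. It was 0 genes without either KO2 library (891 genes at an unadjusted p under 0.05 without replicate 1 and 1330 without replicate 2), 3 when wild-type replicate 1 was left out and 12 when replicate 2 was, where the lone library was assumed to vary like the other group.

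The genes that passed were of several kinds. Rasgrf1 and Ipw are imprinted genes, and A230057D06Rik lies near Ipw. Sgk1, a kinase induced by glucocorticoid hormones, Gm129 (now named Ciart), a repressor of the circadian clock, and Serpina3n, a secreted protease inhibitor of reactive astrocytes, rose. Pttg1, which holds back chromosome separation in dividing cells, fell. Amd1 and Rnu12 were called lower on values that need separate comment. The dot plot of the 9 genes by library shows groups that do not overlap in any of them.

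**Figure D1:**
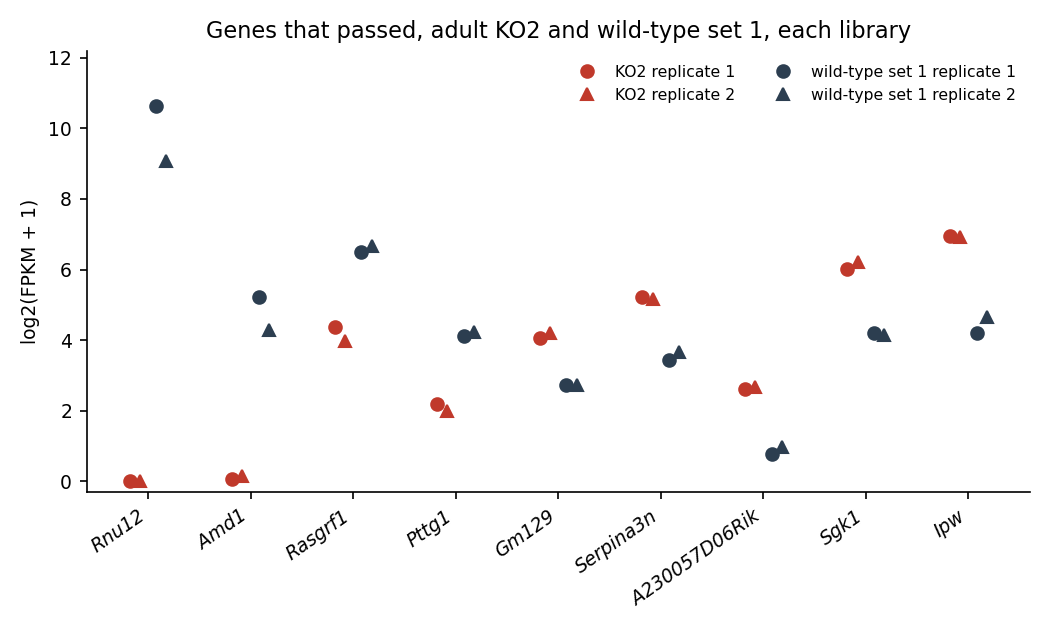
Each point is 1 library's log2(FPKM + 1) for a gene that passed limma's adjusted p of 0.05, with KO2 replicates in red and wild-type set 1 replicates in dark blue. The 4 genes on the left are lower in both KO2 libraries and the 5 on the right are higher, and Rnu12 and Amd1 lie at or near 0 in KO2.

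Rasgrf1 encodes an exchange factor that loads GTP onto Ras and is expressed in neurons mainly from the paternal copy. It was at 19.7 and 14.8 FPKM in KO2 and 89.5 and 100.4 in wild type, a log2 change of −2.41 (SE 0.15, adjusted p = 0.0373 by limma). The KO2 level was 0.182 of the wild-type level, and every KO2 library lay far below every wild-type library. The fall was of like size at E19.5, where Rasgrf1 was at 2.94 and 0.672 FPKM in KO2 and 12.03 and 12.7 in wild type (log2 change −2.38, adjusted p = 0.0132 by limma), and the difference between stages was −0.023 (SE 0.48). In KO3, which also lacks the Rasgrf1-DMR, it was at 103.6 and 85.3 FPKM, against 149.4 and 97.2 in wild-type set 2. The difference between the KO2 and KO3 changes was −2.05, with an adjusted p of 0.159 by limma. Rasgrf1 no longer passed when any 1 of the 4 adult libraries was left out.

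Ras signalling was also examined through a list of 20 exchange factors, inhibitors and feedback genes that includes Rasgrf1. No other gene of the list passed, and 9 of its 20 members lay higher in both KO2 libraries and 3 lower. The shares over all tested genes were 31.0% higher and 15.9% lower. The median log2 change was 0.13 against 0.045 over all tested genes, and it changed sign over the alternative settings (−0.028 to 0.21). Dusp4, a phosphatase that switches off ERK, was at 8.40 and 6.45 FPKM in KO2 and 3.53 and 3.69 in wild type. It passed in the 10-library fit (log2 change 0.86, adjusted p = 0.0339 by limma). Rasgrf2, the closest relative of Rasgrf1, was at 25.0 and 26.8 against 20.6 and 17.1 FPKM (log2 change 0.44, adjusted p = 0.341 by limma). Spry4, a feedback inhibitor of the pathway, was at 5.21 and 5.81 against 4.15 and 3.604 FPKM and did not pass either.

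Ipw, a non-coding RNA of the Snrpn cluster on chromosome 7 that is expressed from the paternal copy, was at 121.6 and 120.1 FPKM in KO2 and 17.4 and 24.1 in wild type. The ratio was 5.82, and the log2 change 2.50 (SE 0.16, adjusted p = 0.0373 by limma). A230057D06Rik, a long non-coding RNA of the same cluster, rose from 0.715 and 0.961 FPKM to 5.11 and 5.42 (log2 change 1.77, adjusted p = 0.0490 by limma). It reached the 1 FPKM needed for testing in the KO2 libraries only. Both also rose at E19.5, by 2.16 (adjusted p = 0.000814) and 2.27 (adjusted p = 0.0014) on the log2 scale, with no stage difference that passed. In KO3, Ipw was at 47.0 and 56.0 FPKM against 21.0 and 135.3 in wild-type set 2, so the groups overlapped there.

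No other tested gene of the Snrpn cluster passed. Snrpn, which encodes a splicing protein and is its main paternally expressed gene, was at 349.8 and 291.2 FPKM in KO2 and 437.2 and 309.0 in wild type, with overlapping groups. Ndn, a paternally expressed regulator of neuronal survival, was at 122.1 and 218.8 against 140.9 and 220.4 FPKM. Magel2, a paternally expressed ubiquitin ligase regulator, was at 0.741 and 2.92 against 1.64 and 3.93 FPKM. Ube3a, the ubiquitin ligase expressed from the maternal copy in neurons, lay higher in both KO2 libraries, at 21.7 and 22.9 against 17.0 and 17.5 FPKM (log2 change 0.35), and did not pass (adjusted p = 0.333 by limma). At E19.5 Ube3a fell (−0.45, adjusted p = 0.0388 by limma), and its stage difference passed (0.80, adjusted p = 0.0419 by limma). Between Ipw and Ndn in gene order, B230209E15Rik (log2 change 0.61) and A330076H08Rik (0.67) also lay higher in both KO2 libraries without passing. Between Ube3a and Ipw, C230091D08Rik lay higher in both (0.50) and D7Ertd715e lower in both (−0.20), also without passing. These entries match the same RefSeq gene, Snhg14, although they lay in opposite directions. Reads of Ipw and of antisense transcripts across it cannot be told apart where strand was not used.

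None of the 6 tested genes of the 2 deleted regions passed. Meg3 was at 527.2 and 657.5 FPKM in KO2 and 648.6 and 651.1 in wild type (log2 change −0.14), Rian at 146 and 164 against 157 and 166, and Mirg at 21.3 and 23.02 against 24.8 and 21.5. Igf2 was at 19.3 and 14.4 FPKM against 19.4 and 23.3 (log2 change −0.33, adjusted p = 0.457 by limma), the only 1 of the 6 whose groups did not overlap. Dlk1, an inhibitory ligand of Notch, spread more within groups than between them, at 2.11 and 18.6 against 5.28 and 13.0 FPKM. Rtl1, a gene derived from a retrotransposon, was at 1.64 and 2.08 against 1.85 and 2.41 FPKM. H19 (0.225 and 0.0970 against 0.929 and 0.672 FPKM) and Dio3, which inactivates thyroid hormone, (1.32 and 0.612 against 0.683 and 0.884 FPKM) were too low to be tested. The signs of Meg3, Rian, Mirg, Dlk1 and Rtl1 each turned when a library was left out, so no direction can be read for them.

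Of the imprinted genes outside these regions, 20 maternally expressed and 20 paternally expressed genes were tested and none passed. Of the paternally expressed genes 6 lay higher in both KO2 libraries and none lower, with a median log2 change of 0.17. The shares of 31.0% and 15.9% over all tested genes stand beside that count. Zrsr1, a splicing factor gene, was at 19.4 and 22.4 FPKM against 14.4 and 13.9 (log2 change 0.53), and Airn, the non-coding RNA that silences Igf2r, at 3.41 and 4.94 against 2.09 and 1.68 (0.83). The maternally expressed genes had 6 higher and 3 lower in both KO2 libraries and a median of 0.025, which became −0.0060 with quantile scaling and −0.023 with median-of-ratios scaling.

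Glucocorticoid-responsive genes lay higher in KO2 almost throughout the list. These genes are switched on when corticosterone binds the glucocorticoid receptor, and several of them limit inflammation or store fat. Both KO2 libraries were above both wild-type libraries for 12 of 14 genes and below them for 1, against 31.0% and 15.9% of all tested genes, and the median log2 change was 0.69. Plin4 and Hif3a reached 1 FPKM in KO2 only and so could be tested only because they were high there, and without them 10 of 12 lay higher and the median was 0.61. Sgk1 alone passed, at 63.4 and 73.8 FPKM against 17.3 and 16.5 (log2 change 1.96, SE 0.10, adjusted p = 0.0326 by limma). In the 10-library fit 5 members passed, all higher, or 4 without Plin4.

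Tsc22d3 (GILZ), which restrains inflammatory transcription, was at 61.9 and 52.2 FPKM in KO2 and 20.7 and 23.3 in wild type (log2 change 1.33, adjusted p = 0.0887 by limma). Plin4, a coat protein of lipid droplets, was at 4.76 and 3.86 against 0.718 and 0.918 FPKM (1.54, adjusted p = 0.108 by limma). Fkbp5, a chaperone that dampens the glucocorticoid receptor itself, was at 14.4 and 11.5 against 7.03 and 7.20 FPKM, and Zbtb16, a transcription factor, at 20.5 and 13.7 against 7.78 and 5.34 FPKM. These 4 and Sgk1 are the members that passed in the 10-library fit. The metallothionein Mt1 ran the other way, at 1801.4 and 1554.9 FPKM in KO2 and 1885.7 and 1860.4 in wild type, and Cdkn1a, an inhibitor of the cell cycle, overlapped between groups.

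At E19.5 Sgk1 was at 16.2 and 20.1 FPKM in KO2 and 16.8 and 15.6 in wild type and did not pass (log2 change 0.15, adjusted p = 0.472 by limma). The difference between the stages passed (1.81, SE 0.17, adjusted p = 0.0109 by limma). It also passed for Tsc22d3 (0.83, adjusted p = 0.0494) and Plin4 (1.11, adjusted p = 0.0442), and in the opposite direction for Mt1 (−2.68, adjusted p = 0.00352) and Mt2. In adult KO3, Sgk1 was at 66.4 and 88.2 FPKM against 43.1 and 23.2 in wild-type set 2, and rose there as well (log2 change 1.25, adjusted p = 0.0401 by limma). The difference between the KO2 and KO3 changes did not pass (0.71, adjusted p = 0.288). Over the whole list the median log2 change was 0.52 at E19.5 and 0.75 in adult KO3, beside 0.69 in adult KO2.

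Most tested clock genes lay higher in KO2, and 2 activators of the clock lay lower, though none of them passed. The clock runs on a loop in which the activators Arntl (BMAL1), Clock and Npas2 bind E-box sequences and switch on their own repressors, the Per, Cry and Nr1d genes, and outputs such as Dbp. Both KO2 libraries were above both wild-type libraries for 12 of 15 tested clock genes, most of them repressors and outputs, and below them for 2, the activators Arntl and Npas2. The clock gene Per1 is also on the glucocorticoid list. The median log2 change was 0.42, and 11 of the 12 had an unadjusted p under 0.05. None of the 15 passed. The clock repressor Gm129, which the list names as Ciart and which is therefore not among the 15, rose.

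Gm129 was at 15.6 and 17.4 FPKM in KO2 and 5.56 and 5.57 in wild type (log2 change 1.41, SE 0.094, adjusted p = 0.0373 by limma). Per2, a repressor of the loop, was at 13.4 and 13.8 against 5.67 and 4.56 FPKM (log2 change 1.26, adjusted p = 0.0993 by limma). Dbp, a transcription factor of the clock's output, was at 35.6 and 40.4 against 16.3 and 18.6 FPKM (1.08, adjusted p = 0.117 by limma). In both, the replicates of a group lay closer to each other than to the other group. Nr1d2 (REV-ERBβ), which represses Arntl, was at 29.9 and 28.3 against 13.5 and 15.8 FPKM. Arntl was at 8.98 and 7.69 FPKM in KO2 and 14.2 and 13.1 in wild type (−0.65), and its partner Clock did not separate the groups (10.3 and 10.05 against 10.5 and 9.53 FPKM). Per2, Per3, Nr1d2, Bhlhe40 and Arntl passed in the 10-library fit. The labels give no hour at which tissue was taken.

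**Figure D2:**
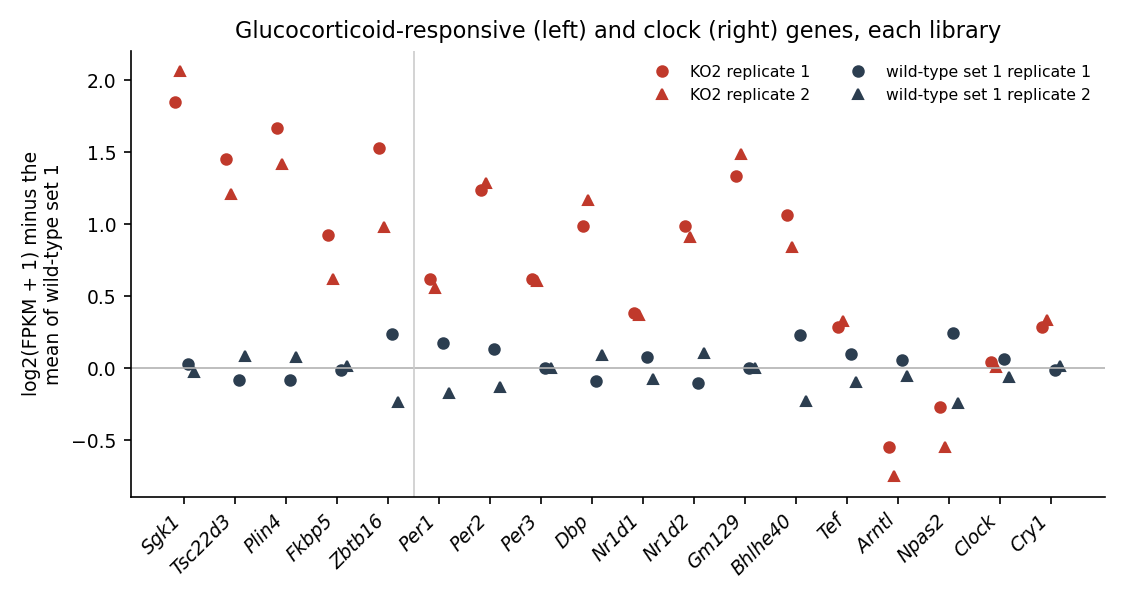
Each point is 1 library's log2(FPKM + 1) minus the mean of wild-type set 1, for glucocorticoid-responsive genes on the left and clock genes on the right, with circles for replicate 1 and triangles for replicate 2. The KO2 points (red) lie above the wild-type points (dark blue) for Sgk1, Per2, Dbp, Nr1d2 and Gm129, below them for Arntl and Npas2, and among them for Clock.

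In adult KO3 the clock list had a median log2 change of −0.28 against wild-type set 2, and at E19.5 of 0.11. The stage difference passed for Per3 (0.61 in the adult against −0.24 at E19.5, adjusted p = 0.0396 by limma) and for Arntl (−0.65 against 0.11, adjusted p = 0.0449). For Gm129 it was 1.27 (adjusted p = 0.0452). In KO3, Gm129 was at 10.7 and 17.7 FPKM against 15.9 and 7.02, with overlapping groups.

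The letters that the clock and the stress-responsive factors are known to bind were looked for in the 250 bases before the start site of each gene in the RefSeq promoter table (GRCm38.p6). The E-box CACGTG, which reads the same on both strands, was present in at least 1 window of 6.86% of the 27025 genes in the table. Of the 13 listed clock genes with a window 4 held it, namely Per1, Cry1, Tef and Bhlhe41, as did 3 of 13 glucocorticoid-responsive genes, Fkbp5, Sgk1 and Per1. Ciart held it too. The windows of Ciart, which rose, and of Per1 and Cry1, which lay higher without passing, are printed to show their number and place. Each is given 5′ to 3′ on the gene's strand, with E-boxes in capitals.
Ciart: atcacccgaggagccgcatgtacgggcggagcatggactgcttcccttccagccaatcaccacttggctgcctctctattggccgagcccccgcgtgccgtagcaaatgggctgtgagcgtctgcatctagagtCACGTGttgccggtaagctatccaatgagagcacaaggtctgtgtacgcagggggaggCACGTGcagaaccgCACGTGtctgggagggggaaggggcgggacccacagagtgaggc
Per1: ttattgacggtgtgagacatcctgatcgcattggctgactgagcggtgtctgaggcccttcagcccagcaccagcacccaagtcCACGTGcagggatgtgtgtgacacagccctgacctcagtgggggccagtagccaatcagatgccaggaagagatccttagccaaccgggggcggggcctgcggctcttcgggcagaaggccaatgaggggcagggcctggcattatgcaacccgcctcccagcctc
Cry1: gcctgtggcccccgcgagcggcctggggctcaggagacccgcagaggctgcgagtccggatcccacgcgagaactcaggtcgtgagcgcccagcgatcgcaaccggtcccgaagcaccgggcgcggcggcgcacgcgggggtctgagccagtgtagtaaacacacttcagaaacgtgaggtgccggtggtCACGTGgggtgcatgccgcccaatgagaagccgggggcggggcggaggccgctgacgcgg
The Ciart window (chr3:95882229-95882478, minus strand) holds 3 E-boxes, which begin 116, 58 and 44 bases before the start site. The Per1 window (chr11:69098699-69098948, plus strand) holds 1 at 166 bases, and the Cry1 window (chr10:85185055-85185304, minus strand) 1 at 60 bases. Per1 was at 27.4 and 26.2 FPKM in KO2 and 19.9 and 15.4 in wild type, and Cry1 at 7.83 and 8.13 against 6.17 and 6.34. The D-box TTATGTAA, the site of Dbp, was found in 1 clock gene, Per3, and in 0.977% of all genes.

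For the glucocorticoid receptor the core ACANNNTGT, which also reads the same on both strands in this form, was in 6.76% of all genes and in 2 of 13 listed genes, Sgk1 and Mt1. Both Sgk1 windows that hold it are printed, since Sgk1 had the largest log2 change of its list and has more than 1 start site in the table, with the core in capitals.
Sgk1, upstream start: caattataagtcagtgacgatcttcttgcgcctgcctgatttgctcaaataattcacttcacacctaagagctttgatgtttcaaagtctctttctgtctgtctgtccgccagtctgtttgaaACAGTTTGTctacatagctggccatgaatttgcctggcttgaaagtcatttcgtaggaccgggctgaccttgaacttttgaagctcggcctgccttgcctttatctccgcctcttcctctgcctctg
Sgk1, downstream start: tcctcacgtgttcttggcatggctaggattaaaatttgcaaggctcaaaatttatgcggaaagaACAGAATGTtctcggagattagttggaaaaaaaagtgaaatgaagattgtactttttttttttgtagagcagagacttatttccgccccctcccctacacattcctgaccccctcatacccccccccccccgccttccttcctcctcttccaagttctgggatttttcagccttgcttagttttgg
These windows are chr10:21978422-21978671 and chr10:21993640-21993889, both on the plus strand, with cores that begin 127 and 186 bases before their start sites. The files give 1 value for Sgk1, so its start sites were not told apart.

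Genes of the unfolded protein and integrated stress responses lay higher in KO2. The endoplasmic reticulum answers misfolded protein by splicing Xbp1 and by raising chaperones such as Hspa5 (BiP). Both KO2 libraries were above both wild-type libraries for 11 of 14 genes and below them for none, 10 of them at an unadjusted p under 0.05, and the median log2 change was 0.31. None passed. Xbp1 was at 54.9 and 56.8 FPKM in KO2 and 29.5 and 28.2 in wild type (log2 change 0.93, adjusted p = 0.0887 by limma), and it alone of the list passed in the 10-library fit (adjusted p = 0.0114). Herpud1, which helps clear misfolded protein, was at 33.5 and 37.5 against 24.4 and 24.8 FPKM (0.51), and Hspa5 at 114.8 and 116.6 against 80.5 and 92.3 FPKM (0.42).

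Several members of the list overlapped between the groups or were too low to be tested. Ddit3 (CHOP), a factor of stress-induced cell death, was at 35.6 and 33.8 FPKM against 34.96 and 33.8, Chac1, an enzyme that degrades glutathione, at 3.81 and 4.58 against 4.14 and 5.36, and Trib3 and Atf3 did not reach the level tested. The list's median log2 change was 0.036 at E19.5 and 0.46 in adult KO3. The stage difference passed for Xbp1 (1.34, SE 0.13, adjusted p = 0.0117 by limma) and for Hspa5 (adjusted p = 0.0423). Xbp1 also lies in the stretch of chromosome 11 described with the gene order, whose genes lay higher together.

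The endoplasmic reticulum stress element (CCAAT, then 9 bases of any kind, then CCACG), searched on both strands, was in 0.13% of all genes and in 4 of 15 listed genes, Hspa5, Hsp90b1, Pdia6 and Creld2. The Hspa5 window (chr2:34771840-34772089, plus strand) is printed as the plainest case, with the element in capitals, 65 bases before the start site.
Hspa5: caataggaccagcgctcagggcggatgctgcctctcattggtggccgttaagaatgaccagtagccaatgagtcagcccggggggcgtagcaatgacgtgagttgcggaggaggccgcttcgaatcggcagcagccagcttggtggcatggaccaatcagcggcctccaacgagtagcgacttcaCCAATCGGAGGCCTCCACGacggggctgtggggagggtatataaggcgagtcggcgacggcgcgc
Of these 4 genes, Hspa5, Hsp90b1 (131 and 132 against 108 and 116 FPKM) and Creld2 (14.5 and 15.4 against 10.3 and 12.3 FPKM) lay higher in both KO2 libraries and Pdia6 overlapped.

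Serpina3n was at 36.7 and 34.9 FPKM in KO2 and 9.86 and 11.7 in wild type, a ratio of 3.33 (log2 change 1.65, SE 0.11, adjusted p = 0.0373 by limma). It rose by a like amount at E19.5 (11.4 and 10.9 against 2.36 and 2.92 FPKM, log2 change 1.75, adjusted p = 0.000841), and the stage difference did not pass. No other inflammation gene passed: of the 8 tested members of that list, Serpina3n included, 4 lay higher and 1 lower. Nfkbia, the inhibitor of NF-κB, was at 15.1 and 21.3 against 10.6 and 10.5 FPKM (log2 change 0.71, adjusted p = 0.333 by limma). Of the astrocyte markers 2 of 13 lay higher and 4 lower, with a median log2 change of −0.090. The classical class I gene H2-K1, which presents peptides to T cells, was at 20.9 and 14.6 against 8.58 and 7.81 FPKM (1.01, adjusted p = 0.270 by limma), and H2-D1 at 24.4 and 34.3 against 20.0 and 18.3. B2m, the chain shared by all class I molecules, overlapped (124 and 158 against 154 and 84.0 FPKM), and the 11 genes of the class I list had a median of 0.067, or 0.040 without H2-Q7, which reached 1 FPKM in KO2 only. Class I genes are alike in sequence, so the split of reads between them is uncertain.

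Pttg1 (securin) was at 3.57 and 2.96 FPKM in KO2 and 16.3 and 17.7 in wild type, a log2 change of −2.08 (SE 0.11, adjusted p = 0.0326 by limma). At E19.5 it was at 11.5 and 10.6 against 12.9 and 14.3 FPKM, and the stage difference passed (−1.80, SE 0.15, adjusted p = 0.00900). In KO3 it was at 3.31 and 86.1 FPKM and in wild-type set 2 at 27.5 and 11.4, so single libraries of these groups differed by far more than their means. Of the 7 tested cell division genes 1 lay higher and 3 lower, none passed, and the median log2 change was −0.12. Newborn-neuron and progenitor genes had 5 of 13 lower and none higher. The shares over all tested genes were 31.0% higher and 15.9% lower. The median of the newborn-neuron and progenitor list was −0.15, and it changed sign over the alternative settings (−0.33 to 0.077). Hes5, a Notch target that holds neural progenitors back from differentiating, was at 10.7 and 10.5 against 20.5 and 21.5 FPKM (−0.92, adjusted p = 0.0887) and passed in the 10-library fit (adjusted p = 0.0179 by limma).

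Amd1 and Rnu12, which reached 1 FPKM in wild type only, are less certain. Amd1, which makes a precursor of polyamines, was at 0.0504 and 0.106 FPKM in KO2 and 36.4 and 18.5 in wild type (log2 change −4.65, SE 0.31, adjusted p = 0.0373 by limma). Its near-identical copy Amd2 ran the other way, at 49.4 and 43.9 FPKM in KO2 and 1.17 and 17.8 in wild type. The sum of the pair was 49.4 and 44.0 FPKM in KO2 and 37.6 and 36.3 in wild type, and in other libraries too the pair traded level, as in KO3 replicate 1 with 63.8 for Amd1 and 0.00128 for Amd2. Rnu12, a small nuclear RNA of the minor spliceosome, was listed at 0 in both KO2 libraries and at 1604.0 and 539.9 FPKM in wild type (adjusted p = 0.0326 by limma). It was also listed at 0 in 7 of the other 10 libraries, and no longer passed in the 10-library fit. Such RNAs carry no poly(A) tail. Rpph1, the RNA of ribonuclease P, was likewise at 0 in both KO2 libraries and at 2.86 and 4.74 FPKM in wild type, and at 0 in the other 10.

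In some lists of markers of brain regions and other cell types most members lay higher or lower in both KO2 libraries, though no gene of them passed. Striatal genes were lower in both KO2 libraries for 10 of 11 and higher for none, with a median log2 change of −0.91 and an unadjusted p under 0.05 for 8. Adora2a, the adenosine receptor of indirect-pathway neurons, was at 7.73 and 15.3 FPKM in KO2 and 32.9 and 33.1 in wild type (−1.51, adjusted p = 0.294 by limma). Ppp1r1b (DARPP-32), a regulator of dopamine signalling, was at 80.4 and 143.6 against 225.6 and 226.4 FPKM, and Drd2, a dopamine receptor, at 10.5 and 27.8 against 30.1 and 30.8. KO2 replicate 1 was the lowest of the 4 libraries for each of these 3 genes, and the list summed to 276.1 and 531.9 FPKM against 766.3 and 823.2.

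Hippocampal genes ran the other way, with 7 of 8 higher in both KO2 libraries, 1 lower and a median log2 change of 0.86. Dsp, a desmosomal protein that marks dentate granule cells, was at 1.64 and 2.84 FPKM against 0.320 and 0.116, and Lct, the gene of lactase, at 1.45 and 2.03 against 0.345 and 0.188. Both passed in the 10-library fit, but they reached 1 FPKM in KO2 only, and without them 5 of 6 lay higher. Wfs1, a marker of the CA1 field, was the 1 that lay lower, at 37.3 and 37.8 against 46.2 and 45.9 FPKM. In bulk tissue fewer cells of a type and less RNA per cell cannot be told apart.

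Pituitary hormone genes were lower in both KO2 libraries for 3 of 4, with prolactin (Prl) at 2.13 and 8.48 FPKM against 11.04 and 20.4. Erythroid genes were higher for 5 of 5, with summed levels of 821.7 and 851.1 FPKM in KO2 against 83.5 and 484.5 in wild type, and wild-type replicate 1 the lowest. Hbb-bs, a haemoglobin chain, was at 155 and 163 against 45.2 and 77.2 FPKM, and Hbb-b1 at 186 and 119 against 0.0609 and 112, though the chains are near-identical and the split of reads between them is uncertain. Choroid plexus genes overlapped in all 10 tested members and were high in KO2 replicate 1 alone, where the transport protein Ttr was at 1135.1 FPKM against 114.4, 330.9 and 158.6 in the other 3. Genes of meninges and fibroblasts were lower for 6 of 12 and higher for 2. Col1a1, a collagen chain, was at 2.38 and 2.78 against 16.3 and 5.59 FPKM. No gene of these 6 lists passed in the comparison of 4 libraries. The part of these regions and cells in the changes of Rasgrf1, the clock, glucocorticoid-responsive and stress-response genes was not tested.

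**Figure D3:**
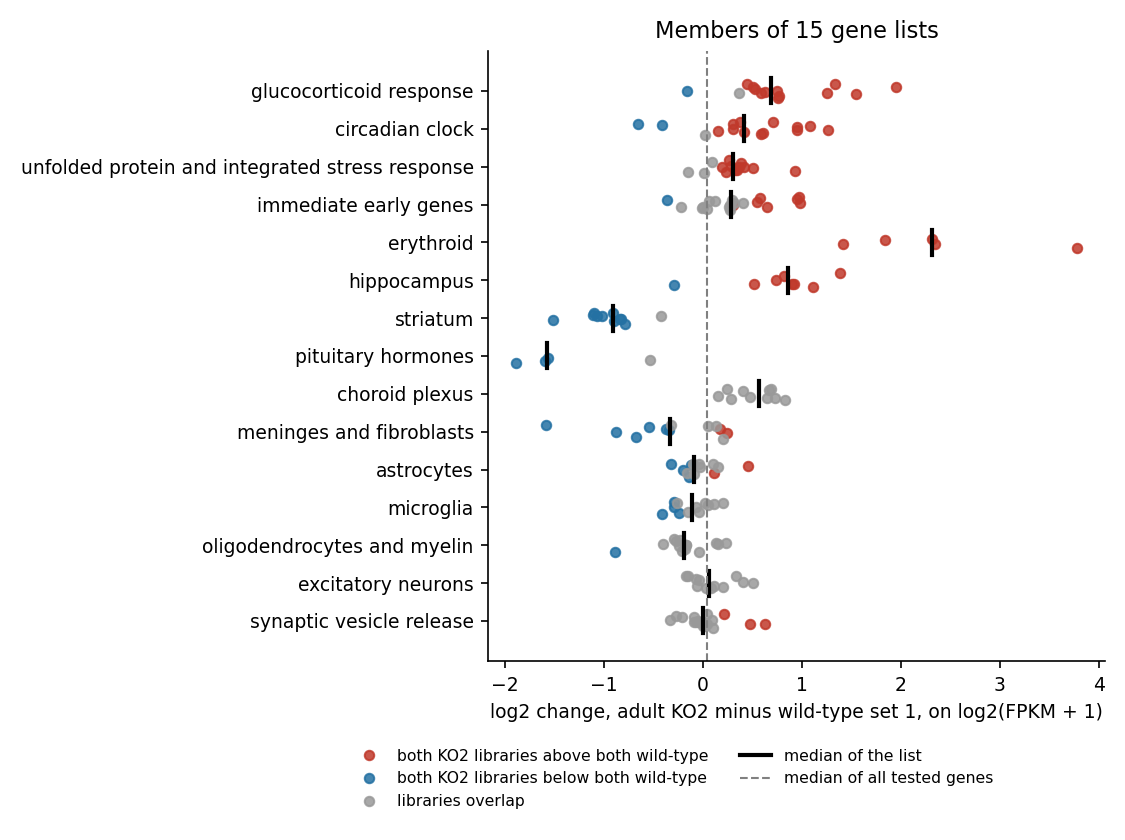
Each point is 1 gene's log2 change between KO2 and wild-type set 1 on log2(FPKM + 1), in 15 gene lists, coloured by whether both KO2 libraries lie above (red), below (blue) or among (grey) the wild-type libraries. Black bars are list medians, such as 0.69 for glucocorticoid-responsive and −0.91 for striatal genes, and the dashed line is the median of all tested genes, 0.045.

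Among the main cell classes of brain, oligodendrocyte precursor genes had a median log2 change of −0.29 with 4 of 9 lower and none higher. Genes of inhibitory neurons had a median of 0.19 with 4 of 11 higher and 1 lower. That last count is near the shares over all tested genes, 31.0% higher and 15.9% lower. The median was −0.11 for 12 microglial markers, −0.19 for 14 oligodendrocyte and myelin genes, 0.061 for 12 genes of excitatory neurons and 0.0025 for 18 genes of synaptic vesicle release. Opalin, a myelin protein, was at 17.98 and 21.8 FPKM against 33.4 and 41.9 (−0.89, adjusted p = 0.268 by limma), while Mbp, the main myelin protein, overlapped at 1254.6 and 1916.9 against 1542.0 and 1971.9. Endothelial and pericyte genes had 4 of 15 lower and 1 higher. Cldn5, the tight junction protein of the blood-brain barrier, was at 12.16 and 16.9 against 33.5 and 30.8 FPKM and passed in the 10-library fit (log2 change −1.11, adjusted p = 0.0150 by limma). Immediate early genes, which neurons switch on with activity, had 7 of 20 higher and 1 lower, a share of higher genes near that of 31.0% over all genes. Sik1, a kinase that is also a target of CREB, was at 7.61 and 8.08 against 5.22 and 4.88 FPKM. The 82 ribosomal protein genes (median 0.062) and 74 nuclear genes of oxidative phosphorylation (0.0095, and −0.043 with median-of-ratios scaling) lay near 0.

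Changed genes were then placed in RefSeq gene order to ask whether neighbours moved together. By the adjusted p of 0.05 no run of 3 or more neighbouring genes was found. In the 10-library fit there were 2 such runs, both on chromosome 11 and both higher in KO2: Urgcp, 2210015D19Rik and Dbnl, and Camk2b, Nudcd3, Ddx56 and Tmed4. They belong to a longer stretch from Zmat5 to Gm11974, whose ends were set after the values were seen. It spans the chromosome 11 runs of 10 or more neighbours that were higher in KO2 at an unadjusted p under 0.05. Most of the counts inside it, and the contrast with its flanks, follow from that rule, so they are a description. Of its 36 tested genes 34 lay higher in both KO2 libraries and none lower, 31 had an unadjusted p under 0.05, and 11 passed in the 10-library fit. The median ratio of KO2 to wild type was 1.502 and the median log2 change 0.57. The DNA copy number of the stretch was not measured, and its part in this ratio and in the level of Xbp1 was not tested. Among the 15 tested genes on each side together (30 genes), 14 lay higher and 2 lower, beside 31.0% and 15.9% of all tested genes. In these flanks 2 genes, Tbrg4 and Ramp3, had an unadjusted p under 0.05 and were higher, and the median ratio was 1.09. Just past Gm11974, Ccm2 overlapped (ratio 1.03). The genes after it, Nacad (1.28), Tbrg4 (1.42) and Ramp3 (1.99), lay higher in both KO2 libraries, and then Adcy1 overlapped (1.18). The far end of the stretch is therefore not sharp.

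The genes of the stretch that are named here have different functions. Ppia, which encodes the protein-folding enzyme cyclophilin A and is a common reference gene, was at 1961.0 and 2008.5 FPKM in KO2 and 1207.7 and 1107.0 in wild type, a ratio of 1.72. Camk2b, a subunit of the synaptic kinase CaMKII, was at 359.3 and 334.2 against 225.7 and 208.7 FPKM (1.60). Nudcd3, a chaperone partner of dynein, was at 65.2 and 64.8 against 37.8 and 34.8 FPKM (1.79), and passed in the 10-library fit (adjusted p = 0.00308 by limma). Nipsnap1, a mitochondrial protein, was at 42.7 and 44.5 against 26.6 and 24.1 FPKM (1.72), and Ap1b1, an adaptor of vesicle coats, at 69.7 and 72.6 against 48.8 and 48.4 (1.46). Emid1, a low gene of the stretch, did not lie higher (2.37 and 2.44 against 2.73 and 2.30 FPKM). At E19.5 the median log2 change of the stretch was −0.031 and in adult KO3 0.15. The stage difference passed for 10 of the 36, among them Nudcd3 (0.88, adjusted p = 0.0191 by limma) and Nipsnap1 (0.99, adjusted p = 0.0184). The adult values that set the ends of the stretch also enter this difference.

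**Figure D4:**
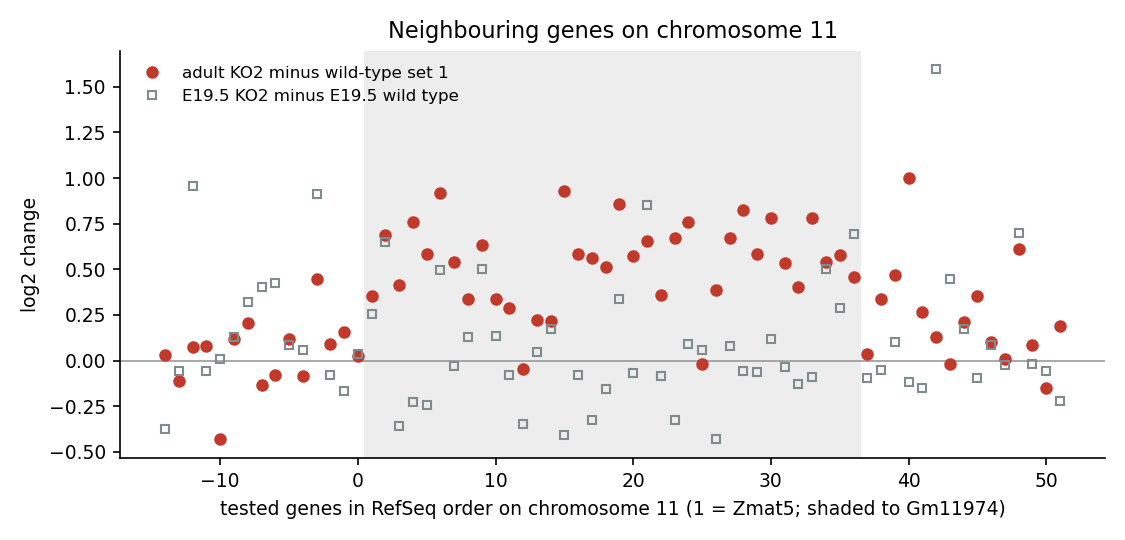
Log2 changes of tested genes in RefSeq order along chromosome 11, with Zmat5 as gene 1 and the stretch to Gm11974 shaded, for adult KO2 (red dots) and E19.5 KO2 (open squares) against their wild types. In the adult 34 of the 36 genes in the shaded stretch have both KO2 libraries above both wild-type libraries, and the E19.5 points scatter around 0 (median −0.031). The ends of the stretch were set from the adult values.

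The changes at the 2 stages were compared across all genes. In an 8-library fit of adult and E19.5 KO2 with their wild types, which share no library, 35 genes passed in the adult (0.249%) and 749 at E19.5 (5.34%), 416 higher (2.96%) and 333 lower (2.37%). The difference between the stages passed for 368 of 14038 genes (2.62%), 212 above 0 (1.51%) and 156 below (1.11%). That split of 57.6% above 0 became 38.4% with quantile scaling and 34.1% with median-of-ratios scaling, so it carries no direction. Leaving out any 1 of the 8 libraries lowered the count, to 3 without E19.5 wild-type replicate 1 and at most 116 without adult KO2 replicate 2. Across the 14038 genes the changes at the 2 stages had a Pearson's r of −0.011 and a Spearman's rho of −0.16, a description over genes that share libraries. The 2 E19.5 KO2 libraries stood apart from each other in Xist, at 1.498 and 84.0 FPKM.

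The largest stage difference above 0 was that of Txnip, which binds thioredoxin and limits glucose uptake. It was at 12.18 and 13.2 FPKM in adult KO2 and 5.61 and 6.98 in adult wild type, and at 5.01 and 5.16 against 35.7 and 30.9 FPKM at E19.5 (difference 3.41, SE 0.17, adjusted p = 0.000634 by limma). The adult difference passed in the 10-library fit (adjusted p = 0.0317). Arrdc3, an arrestin-domain relative, followed the same pattern, with log2 changes of 0.53 in the adult and −0.82 at E19.5 (stage difference, adjusted p = 0.0292). Dusp4 was higher in adult KO2 (0.86) and fell at E19.5 (−0.53, adjusted p = 0.0467 by limma), with a difference of 1.39. C130071C03Rik, a non-coding RNA (difference 1.54), and Aplnr, a receptor of blood vessels (1.39), fell at E19.5. In the adult C130071C03Rik was at 1.67 and 1.11 FPKM in KO2 and 0.889 and 0.978 in wild type, and did not pass. Adult Aplnr, at 0.102 and 0.113 against 0.206 and 0.506 FPKM, was too low to be tested in the adult comparison.

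Below 0, the metallothioneins Mt3 and Mt1, which bind zinc and copper, had adult values of 638.7 and 642.6 against 1052.8 and 996.4 FPKM and of 1801.4 and 1554.9 against 1885.7 and 1860.4 FPKM. Both rose at E19.5, Mt3 by 2.03 and Mt1 by 2.51 on the log2 scale, so the differences were −2.70 and −2.68. Penk, an opioid peptide precursor of striatal neurons, was at 79.4 and 158.7 against 228.1 and 259.0 FPKM in the adult and rose at E19.5 (difference −2.54, adjusted p = 0.0423 by limma). Mbp overlapped in the adult and rose at E19.5, with 89.3 and 42.1 against 10.9 and 13.9 FPKM (difference −2.40, adjusted p = 0.0483). Amd1 completed the 5 largest, at −3.46, with the reservation about its copy.

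**Figure D5:**
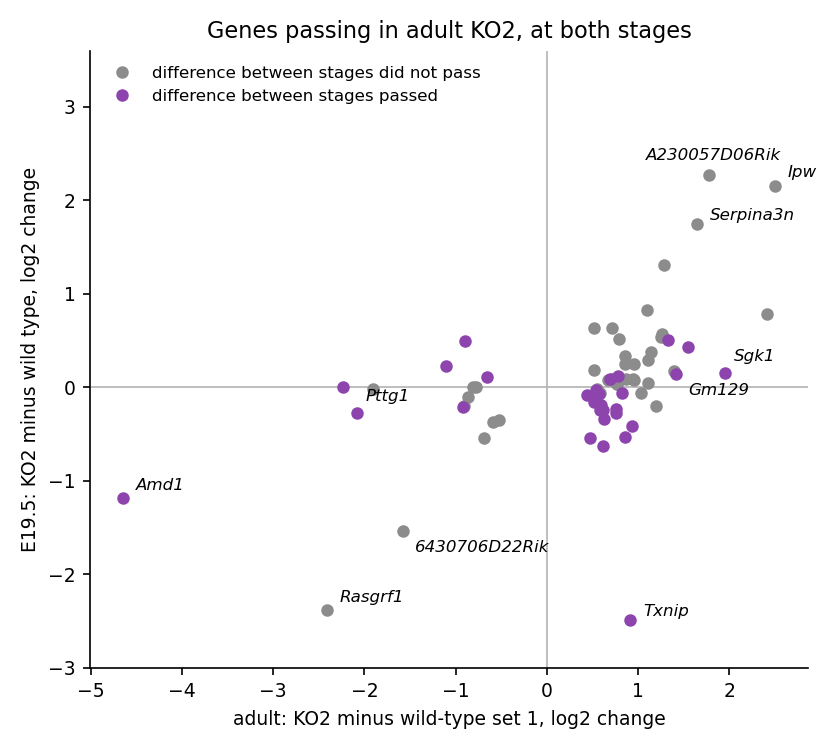
Log2 change in adult KO2 (horizontal) against E19.5 KO2 (vertical) for genes that passed in the adult comparison of 4 libraries or of 10 (Rnu12 not shown), purple where the difference between stages passed. Ipw, A230057D06Rik, Serpina3n, Rasgrf1 and 6430706D22Rik lie far from 0 on both axes, Sgk1, Gm129 and Pttg1 lie near 0 at E19.5, and Txnip has opposite signs.

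Against adult KO3 no gene's difference passed in limma's 8-library fit (0 of 12891), with 2725 genes (21.1%) at an unadjusted p under 0.05. The count was 4857 without KO3 replicate 1, a rise whose cause was not tested, and 0 to 2 without each of the other 7 libraries. In the same fit 897 genes (6.96%) passed for KO3 against wild-type set 2. The KO3 and set 2 libraries listed 9282 to 9294 genes at 0, against 4770 to 5114 in the KO2 and set 1 libraries, a gap whose part in these counts was not tested, and only genes with at least 1 FPKM in 2 libraries of each set of 4 were tested. The KO2 and KO3 changes had a Pearson's r of −0.051 across the 12891 genes.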

How the data were processed

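RNA-seq was read from 1 table of FPKM values deposited by the authors, which holds a column for each library. Per the submitters' processing notes, the build was mm9 and the tools included Cufflinks 2.2.1, TopHat2 2.1.1 and CASAVA. Their roles, the annotation and any scaling between libraries were not given in the sources used here. Depth cannot be read from FPKM, so no counting interval was computed. Genes were filtered at 1 FPKM in 2 columns, a pseudocount of 1 was added, and log2(FPKM + 1) was tested with limma 3.58.1 in R 4.3.3 (trend, 2-sided, Benjamini-Hochberg adjustment over all tested genes, threshold 0.05). Fold changes on that scale understate changes of low genes. The residual degrees of freedom were 2, with a prior of 3.05. The long RNAs Mirg and Mira were kept when small RNA rows were removed. A further 2 entries named no gene. Stage and KO3 differences were interaction contrasts in 8 libraries. Gene lists were described by counts and medians, without set tests. The members and lists were chosen with earlier results of these data known. Genes named are those of the deleted regions, all that passed, the list members with the smallest p, genes of positional runs and the 5 largest stage differences each way. Other list members, and their windows, were picked after their values were seen. Of the tested genes 12440 were matched to the RefSeq table (GRCm38.p6) by symbol and 798 by synonym, and 51 were not matched. The fit was tested on simulated data. Alternatives were 2 other pseudocounts (0.1 and 10), other filters (none, 5 FPKM), other scalings, a robust prior, other sets of libraries, a replicate block and leaving out each library.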

Additional observations from a re-analysis of the deposited data

Results flagged for a closer look

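The change in adult KO2 differed from that at E19.5, by the test of the difference itself, for 368 genes. Those named here are the 5 largest differences each way and 8 genes described in the report, as adult minus E19.5 log2 change with limma's adjusted p. Below 0 were Amd1 (−3.46, adjusted p = 0.0483), Mt3 (−2.70, 0.00900), Mt1 (−2.68, 0.00352), Penk (−2.54, 0.0423), Mbp (−2.40, 0.0483), Pttg1 (−1.80, 0.00900) and Cldn5 (−1.34, 0.0300). Above 0 were Txnip (3.41, adjusted p = 0.000634), Sgk1 (1.81, 0.0109), C130071C03Rik (1.54, 0.0329), Dusp4 (1.39, 0.0191), Aplnr (1.39, 0.0396), Xbp1 (1.34, 0.0117), Gm129 (1.27, 0.0452), Plin4 (1.11, 0.0442), Nipsnap1 (0.991, 0.0184), Nudcd3 (0.883, 0.0191) and Tsc22d3 (0.8265, 0.0494). Over 16 alternative settings Txnip and Mt1 passed in all 16, Mt3, Sgk1 and Xbp1 in 15 and Pttg1 in 14, while Gm129 and Mbp passed in 4 and Tsc22d3 in 3. With 2 libraries a group, single outlying libraries could not be tested.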

How the results depend on the processing

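The count of 9 genes in the adult comparison became 5 with a pseudocount of 10, 0 without a filter (2018 at an unadjusted p under 0.05), 70 with 10 libraries in 1 fit, 20 with all 14 and 2 with both wild-type sets as control, and 0 to 12 when 1 library was left out. Other settings gave 6 to 9. Replicate numbers are shared between groups, and same-numbered libraries deviated together (r = 0.346), but with only 2 pairs this does not show pairing. The replicate block gave 69 genes, 158 stage differences and 2 KO3 differences. The 368 stage differences became 58 without a filter, 681 at 5 FPKM and 3 to 116 when 1 library was left out. The 0 KO3 differences became 1 with a pseudocount of 0.1, 1 with a robust prior and 0 to 4857 when 1 library was left out. Positional runs numbered 2 in the 10-library fit and 23 at an unadjusted p, rules chosen after seeing the data. Of the named genes, Meg3 (0.25) and Mirg (0.17) reversed with both wild-type sets as control. When 1 library was left out, the log2 change of Meg3 ran from −0.30 to 0.017, Rian −0.15 to 0.020, Mirg −0.15 to 0.041, Dlk1 −1.59 to 1.06 and Rtl1 −0.26 to 0.0014. The values above 0 came without KO2 replicate 1 (Meg3, Rian, Dlk1), wild-type replicate 1 (Mirg) or wild-type replicate 2 (Dlk1 0.31, Rtl1). The cause of these shifts was not tested. Rasgrf1, Ipw and Sgk1 passed in 11 of 16 settings, Serpina3n in 10, Pttg1 in 9 and Gm129 in 8, and of 14 settings that could be run Amd1 passed in 9, Rnu12 in 6 and A230057D06Rik in 4. The list median stayed above 0 in every setting for glucocorticoid-responsive (0.41 to 0.77), clock (0.29 to 0.49) and stress-response genes (0.18 to 0.35). For striatal genes it stayed below 0 (−1.45 to −0.57). It changed sign for choroid plexus (−0.20 to 1.40), immediate early genes (−0.024 to 0.62) and many other lists. Among these were oligodendrocyte precursor (−0.46 to 0.030), myelin (−0.49 to 0.095), microglial (−0.28 to 0.27), astrocyte (−0.14 to 0.17) and excitatory neuron genes (−0.21 to 0.32). Class I (−0.14 to 0.50) and cell division genes (−0.19 to 0.094) changed sign as well. Depth is unknown and limits low genes.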

Other observations

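Beyond chromosome 11, other neighbours lay apart from wild type together at an unadjusted p under 0.05, a rule chosen after seeing the data that gave 23 runs of 3 or more genes, 5 of them on chromosome 11. On chromosome 17, the 5 genes Myl12b, Myl12a, Lpin2, Emilin2 and Smchd1 were higher in KO2. Lpin2, which makes diacylglycerol, was at 20.8 and 19.7 FPKM in KO2 and 11.7 and 12.1 in wild type, and Smchd1, a chromatin protein needed for X inactivation and for some imprinted genes, at 9.15 and 8.51 against 4.98 and 5.03. Both passed in the 10-library fit of limma (adjusted p = 0.00751 and 0.0296). On chromosome 1, the 4 genes Dnajb3, 6430706D22Rik, A730008H23Rik and Hjurp were lower. Of these, 6430706D22Rik was at 1.96 and 1.28 FPKM against 6.83 and 6.70 (log2 change −1.58, adjusted p = 0.00111 in the 10-library fit of limma), and it had a log2 change of −1.54 at E19.5. On chromosome 7, the zinc finger genes Zfp524, Zfp865, Zfp784 and Zfp580 and their neighbour Ccdc106 were lower, with Zfp580 at 17.6 and 15.3 against 26.8 and 24.1 FPKM.

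The insulin-like growth factor system, to which the H19 region belongs, was described apart from Igf2. Of its 14 tested genes 6 lay higher and 1 lower in both KO2 libraries, beside 31.0% and 15.9% of all genes. The median log2 change was 0.070, near the 0.045 of all genes, and 0.0062 with quantile scaling, and no member passed limma's adjusted p. Irs2, an adaptor of the insulin receptor, was at 18.9 and 19.3 FPKM against 12.4 and 13.6 (log2 change 0.52), Igf1r, the receptor, at 12.1 and 11.9 against 9.36 and 8.90 (0.36), and Igf1 at 2.66 and 1.87 against 0.951 and 1.12 (0.67). Potassium channel genes had 9 of 19 higher and none lower, and Kcnc1, a fast channel of interneurons, was at 44.7 and 46.1 against 35.8 and 38.5 FPKM. Histone genes transcribed with DNA replication had 8 of 19 lower and 1 higher, or 6 of 17 lower without Hist1h2af and Hist1h2be, which reached 1 FPKM in wild type only. How far poly(A) selection keeps histone RNAs was not tested, so their level in the tissue cannot be read from these values. Hist3h2ba was at 22.1 and 24.8 against 34.4 and 34.996 FPKM.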
